A study of Mus musculus with 7 samples.

Results

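The sites at which reverse transcription stopped on RNA methylated with dimethyl sulfate (DMS) were compared with those on untreated RNA (NT) from mouse E14 embryonic stem cells. The comparison used 4 of the 7 samples of the series, NT replicates 1 and 2 and DMS replicates 1 and 2, and 12030 of the 26827 listed transcripts, since for each gene symbol only the transcript with the most stops per listed position was kept. E14 cells are a 129/Ola line, grown here on gelatin with leukaemia inhibitory factor. In all 4 samples the lysate was deproteinized with proteinase K, ribosomal RNA was depleted with Ribo-Zero Gold, and cDNA was primed with random hexamers. Each DMS library pooled aliquots treated at 50, 100, 150 and 200 mM, and each NT library pooled equal amounts of the 0 mM aliquots of the DMS series and of a second reagent's series, whose buffer and incubation differed. DMS-treated RNA was quenched with 2-mercaptoethanol and TRIzol and passed over RNeasy columns, whereas untreated RNA was recovered with TRIzol only, so the effects of reagent, buffer and column cannot be told apart. The study speaks of biological replicates but the labels name no separate cultures, so the p-values measure only the spread between these libraries, which may be technical.

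DMS methylates the base-pairing face of adenosine and cytosine where these bases are not paired. The methyl group halts reverse transcriptase next to the modified base, and the deposited position had already been moved to that base. Stops in untreated RNA come from other obstacles, among them natural base modifications, stable structure and the 5′ end of the RNA, and they form the background against which a DMS stop is read. An RNA's total therefore depends on its abundance, its reactivity and its background stops together. For ribosomal RNA it can also depend on what the depletion left.

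The windows below show positions that rose within their transcript after DMS in RNAs of several kinds, written 5′ to 3′ in mm9 with T for U. Capitals mark the positions past the test, and positions are counted from 1 at the first base of the transcript. Most of these capitals are A.
mt-Rnr1, positions 1 to 27, chrM:70-96 (+): AAaggtttggtcctggccttataatta
mt-Rnr1, positions 370 to 420, chrM:439-489 (+): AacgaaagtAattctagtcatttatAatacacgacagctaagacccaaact
mt-Rnr2, positions 389 to 439, chrM:1482-1532 (+): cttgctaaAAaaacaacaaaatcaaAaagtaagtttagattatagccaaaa
mt-Rnr2, positions 756 to 806, chrM:1849-1899 (+): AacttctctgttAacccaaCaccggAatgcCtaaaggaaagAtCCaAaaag
mt-Co3, positions 611 to 661, chrM:9217-9267 (+): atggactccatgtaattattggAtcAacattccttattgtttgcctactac
U3, positions 88 to 138, chr11:87284957-87285007 (+): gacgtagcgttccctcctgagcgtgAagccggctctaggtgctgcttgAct
AC120136.1, positions 34 to 84, chr1:72290820-72290870 (+): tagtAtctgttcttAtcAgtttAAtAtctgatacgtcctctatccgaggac
Pou5f1, positions 272 to 308, chr17:35646447-35646483 (+): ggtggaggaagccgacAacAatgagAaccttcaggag

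The next windows show small RNAs described below in which single positions led the untreated stops. Capitals mark the position with the most untreated stops in the mitochondrial tRNAs, and the leading position or positions over all libraries in U1 and Snord69.
mt-Tv, positions 1 to 40, chrM:1025-1064 (+): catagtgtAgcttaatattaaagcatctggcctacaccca
mt-Tq, positions 1 to 40, chrM:3803-3842 (-): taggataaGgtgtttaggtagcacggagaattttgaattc
mt-Tw, positions 1 to 40, chrM:4950-4989 (+): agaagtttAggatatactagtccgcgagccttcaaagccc
mt-Tt, positions 1 to 40, chrM:15289-15328 (+): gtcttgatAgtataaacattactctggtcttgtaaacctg
U1, positions 1 to 50, chr1:48519088-48519137 (-): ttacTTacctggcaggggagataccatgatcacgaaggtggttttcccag
Snord69, positions 1 to 80, chr14:31827473-31827552 (-): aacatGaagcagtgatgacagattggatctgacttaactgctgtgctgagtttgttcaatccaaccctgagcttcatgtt

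The kept transcripts held 143858229 and 134075233 stops in NT replicates 1 and 2 and 143796234 and 125379374 in DMS replicates 1 and 2. Only 4.59 to 6.68% of them lay at positions whose next 25 bases occur once in mm9, here called found once, although 57.8% of listed positions were of that kind. Results are therefore given over all positions and, where the value moved, over positions found once. Replicate libraries also held equal counts at many positions: 47871 of 297515 tested positions (16.1%) had replicate counts that differed by at most 1 in both treatments. Another 756 genes were flagged because nearly all of their well-counted positions were this close, in 1 or both treatments. Counts this close between libraries are below sampling noise and make a test too confident, so counts of calls are also given without them. In addition, 142052 tested positions shared all 4 counts with another tested position. Each library's kept transcripts held more stops than the reads the paper gives per treatment, so some reads were counted at several places. Shares and counts of genes or positions below can therefore hold the same reads more than once. All 8 embryonic stem cell markers were listed, with a summed level of 2062 to 2412 RPKM (found-once stops per kb of transcript, scaled to the library's found-once total), against 1.87 to 3.79 for the 1 of 5 feeder fibroblast markers that was listed. The 2 of 4 listed neural markers summed to 75.3 to 99.5 and the 2 of 4 listed trophoblast markers to 35.9 and 43.9 in NT and 23.98 and 11.65 in DMS.

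Stops lay at adenosine more often after DMS. Among found-once positions, A took 15.6 and 17.7% of the stops of the NT libraries and 31.3 and 40.2% of those of the DMS libraries. Both DMS libraries lay above both NT libraries. C, the other base that DMS methylates on its pairing face, took 36.6 and 30.4% in NT and 32.9 and 28.8% in DMS, and these ranges overlapped. G took 16.2 and 18.02% in NT and 12.1 and 11.4% in DMS. U took 31.6 and 33.9% in NT and 23.7 and 19.6% in DMS, so both bases that DMS does not methylate on the pairing face had lower shares in both DMS libraries. Over all positions, A and C together held 47.5% ± 1.46 (SD, n = 2) of stops in NT and 61.8% ± 1.29 (SD, n = 2) in DMS. The exact two-sided permutation test gave p = 0.333 for this difference, the smallest value that 2 libraries against 2 allow, so no comparison of shares here could pass 0.05. Over all positions the share of C was also higher in DMS, at 42.3 and 38.1% against 34.8 and 30.7%, which was not seen at found-once positions.

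Single positions showed the same order of bases. The ratio of DMS to NT stops, each divided by the transcript's own mean, was taken with the 2 replicates of a treatment summed. It averaged a log2 of 1.73 at found-once A (1.32 and 1.48 in the replicate pairs). It averaged -0.08 at C, -0.59 at G and -0.63 at U. A stood highest in each kind of RNA: its mean was 1.72 in nuclear mRNA genes, 1.88 in pseudogenes, 1.71 in mitochondrial rRNA, 1.43 in mitochondrial mRNA, 1.42 in mitochondrial tRNA, 1.45 in snRNA and 1.60 in snoRNA. It was lower in lincRNA (0.60), in annotated miRNA genes (0.70) and in rRNA genes (0.29). Taken over all positions and bases, the mean at A and C minus that at G and U was 1.22, with values of 0.964 and 1.22 in the separate replicate pairs.

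**Figure D1:**
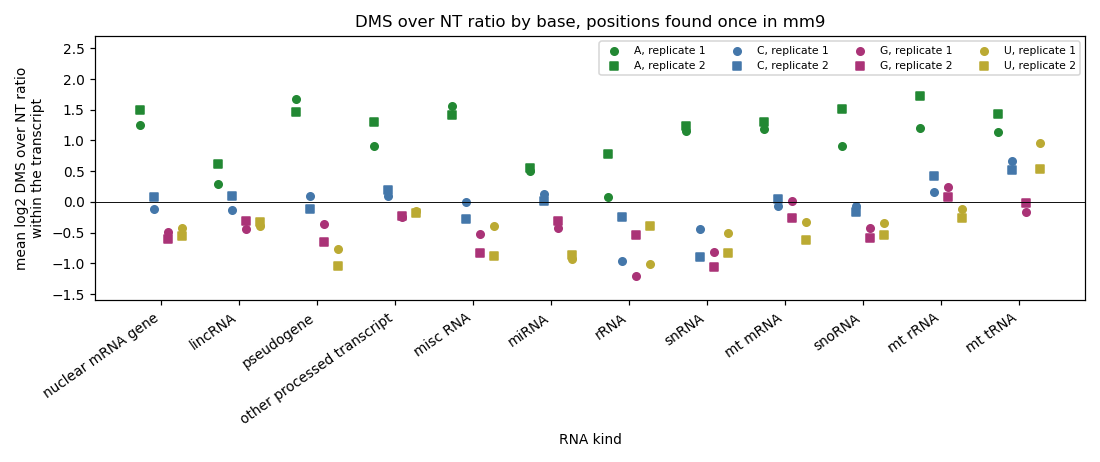
Mean log2 ratio of DMS to NT stops within the transcript (y axis) at A, C, G and U in each kind of RNA, over positions found once, with 1 point for each replicate pair. A lies above the other bases in both pairs in mitochondrial rRNA, at 1.20 and 1.73, while in rRNA genes the pairs give 0.08 and 0.79.

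A position was called raised or lowered when its share of its own transcript's stops differed between DMS and NT in edgeR's quasi-likelihood test (adjusted p under 0.05). Of 297515 positions with at least 100 stops over the 4 libraries, 35958 (12.1%) were raised and 12582 (4.23%) were lowered. The minimum on stops lets a position pass through its DMS counts alone, so these counts describe the tested positions only, as do the shares of single genes below. Setting a gene's share beside that of all tested positions therefore cannot show a stronger or weaker response. No p or SE is given below for a position with fewer than 100 stops over both NT libraries. Raised calls were made at 22794 of 81348 tested A (28.0%), 8839 of 90764 C (9.74%), 1617 of 50806 G (3.18%) and 2555 of 73499 U (3.48%). Among positions found once, where 10.4% were raised and 6.75% lowered, 2896 of 9092 A (31.9%) but only 239 of 10188 C (2.35%), 107 of 4615 G (2.32%) and 121 of 8366 U (1.45%) were raised. A thus made up 86.1% of raised positions and 28.2% of tested positions there. Without the positions of equal replicates, where 6.84% were raised and 1.42% lowered, 12877 of 69510 A (18.5%) were raised. With any library left out edgeR called 0 positions, with a smallest adjusted p of 0.0832 to 0.179, and such a fit, with 1 library in a treatment, says nothing about the stability of the calls. It had 64515 to 100424 at an unadjusted p under 0.05 against 103787 with all 4, while DESeq2 on all 4 libraries called 58285.

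The base that follows the A, which is copied just before it, went with the size of the rise. Of found-once A followed by another A, 2353 of 4269 (55.1%) were raised, with a median log2 of 2.67. When the next base was C, 112 of 1446 (7.75%) were raised. When it was G, 165 of 1316 (12.5%) were raised, and when it was U, 266 of 2061 (12.9%). The preceding base separated A much less, from 24.2% raised after U to 36.0% after G. A followed by A held 4.01 and 5.39% of all found-once stops in NT and 16.4 and 19.6% in DMS, which is most of the difference at A. The next base was A at 47.2 and 43.5% of found-once stops in the NT libraries and at 56.2 and 50.4% in the DMS libraries. Stops before an A were thus already frequent without DMS, and the part of that background in the raised calls was not tested.

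**Figure D2:**
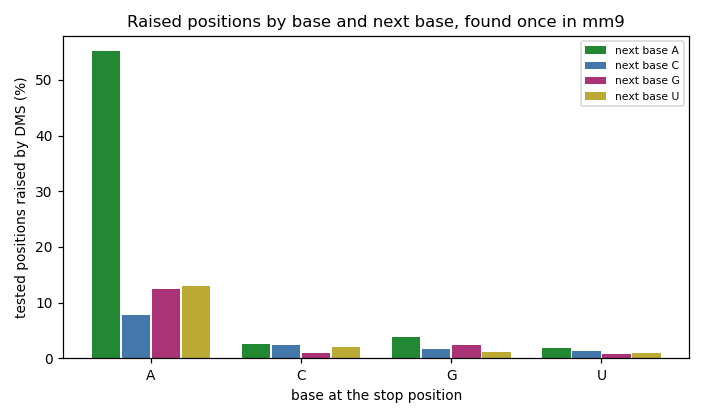
Percent of tested found-once positions raised by DMS (y axis) for each base and the base after it. A followed by A stands at 55.1%, above A followed by any other base (7.75 to 12.9%) and above every pair that begins with C, G or U.

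Within nuclear mRNAs the raised A lay mainly in coding sequence. Of found-once A in coding sequence, 761 of 1617 (47.1%, 348 genes) were raised, with a median log2 of 2.42. In 3′ UTRs, the stretches after the stop codon, 74 of 1472 (5.03%, 678 genes) were raised, with a median of -0.56, and in 5′ UTRs 53 of 304 (17.4%, 158 genes) were raised. The other bases had similar found-once medians in 3′ UTRs, at -0.63 for C, -0.61 for G and -0.59 for U. In coding sequence theirs were -0.21, -0.63 and -0.78, far below that of A. For A followed by A the shares were 68.1% in coding sequence, 12.7% in 3′ UTRs and 40.4% in 5′ UTRs, the same order of the regions as for all A. Over all positions the gap was smaller, with 34.1% of tested A raised in coding sequence, 19.2% in 3′ UTRs and 18.1% in 5′ UTRs. A did not lead in 3′ UTRs there, where 4526 of 22251 C (20.3%) were raised. Positions of 1 transcript share its total, and these shares are given without a test.

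Pou5f1, which encodes the pluripotency factor Oct4, had the most raised positions among the pluripotency mRNAs named here. All 13 raised positions among its 46 tested ones (28.3%, against 12.1% of all tested positions) were A. Of these, 12 stood before another A. The kept transcript is 462 bases long. A316, A291 and A297 had few NT stops and reached the minimum on stops only through their DMS counts. An unraised A with as few NT stops would fall short of that minimum. The 28.3% against 12.1% therefore does not show a stronger response of Pou5f1. A316 held 8 and 8 stops in NT and 80 and 78 in DMS, a log2 of 2.97. A291 held 12 and 11 in NT and 75 and 90 in DMS, a log2 of 2.54, and is the second capital of the window printed above. At A297, the last capital of that window, the counts were 2 and 0 in NT and 57 and 60 in DMS. The DMS libraries lay far above the NT libraries at all of these positions, while the gene's total did not pass the test (4509 and 3594 in NT, 5628 and 4472 in DMS, log2 -0.10, adjusted p = 0.839). Other mRNAs of the list had fewer raised positions: Dppa5a, a small RNA-binding protein of stem cells, had 7 raised of 62 (11.3%), Tdgf1, a Nodal co-receptor, 5 of 49 (10.2%) and Zfp42, a stem cell zinc finger protein, 1 of 21, all at A. For the core factors Nanog and Sox2 edgeR raised 0 of 60 and 0 of 20 tested positions, with 1 and 2 at an unadjusted p under 0.05, while DESeq2 raised 6 and 1 and the edgeR fit over found-once positions raised 1 for Sox2.

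In abundant housekeeping mRNAs most raised positions were also A. Eef2, the elongation factor that moves the ribosome along mRNA, had 53 raised positions of 484 tested (10.95%, against 12.1% of all tested positions), 52 of them A. Rpl4, a protein of the large ribosomal subunit, had 48 of 244 (19.7%), of which 47 were A. Tubb5, a beta tubulin, had 45 of 208 (21.6%) with 40 at A, and Rps3, a small-subunit protein, had 41 of 160 (25.6%) with 35 at A. Actb, cytoplasmic actin, had 73 of 269 (27.1%) with 42 at A, so more of its raised positions fell on other bases. At Tubb5 A1256 the counts were 12 and 8 in NT and 155 and 158 in DMS, a log2 of 4.58. At Actb A1138 they were 11 and 11 in NT and 186 and 188 in DMS, a log2 of 4.96.

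The share of a library's stops carried by each kind of RNA was compared next. Among these kinds mitochondrial rRNA had the largest ratio of means, with 0.0591 and 0.0852% of stops in NT and 0.291 and 0.481% in DMS, a 5.35-fold higher mean. Pseudogenes held 5.19 and 3.63% in NT and 7.42 and 7.80% in DMS. Mitochondrial mRNA held 0.430 and 0.268% in NT and 0.525 and 0.866% in DMS. In these kinds, as in snRNA and the miscellaneous RNAs, both DMS libraries lay above both NT libraries. At found-once positions the ranges of snRNA (0.189 and 0.259% in NT, 0.210 and 0.393% in DMS) and of the miscellaneous RNAs (10.1 and 9.43% in NT, 8.80 and 10.5% in DMS) overlapped. Nuclear mRNA genes, by far the largest kind, held 75.3 and 80.8% in NT and 65.9 and 72.8% in DMS, and both DMS libraries lay below both NT libraries. For lincRNA, miRNA genes, mitochondrial tRNA, other processed transcripts, snoRNA and rRNA genes the ranges overlapped. rRNA genes differed more within a treatment than between treatments, at 4.31 and 0.973% in NT and 8.93 and 0.551% in DMS. At found-once positions they held 1.77 and 2.11% in NT and 0.758 and 0.561% in DMS, without overlap and in the opposite direction to the means over all positions. lincRNA held 1.86 and 2.39% in NT and 1.15 and 1.28% in DMS there, also without overlap. At found-once positions mitochondrial rRNA held 0.628 and 1.52% in NT and 3.77 and 6.17% in DMS, pseudogenes 11.6% ± 0.849 (SD, n = 2) in NT and 16.9% ± 0.0625 (SD, n = 2) in DMS, and mitochondrial tRNA 0.921 and 1.03% in NT and 0.514 and 0.622% in DMS.

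**Figure D3:**
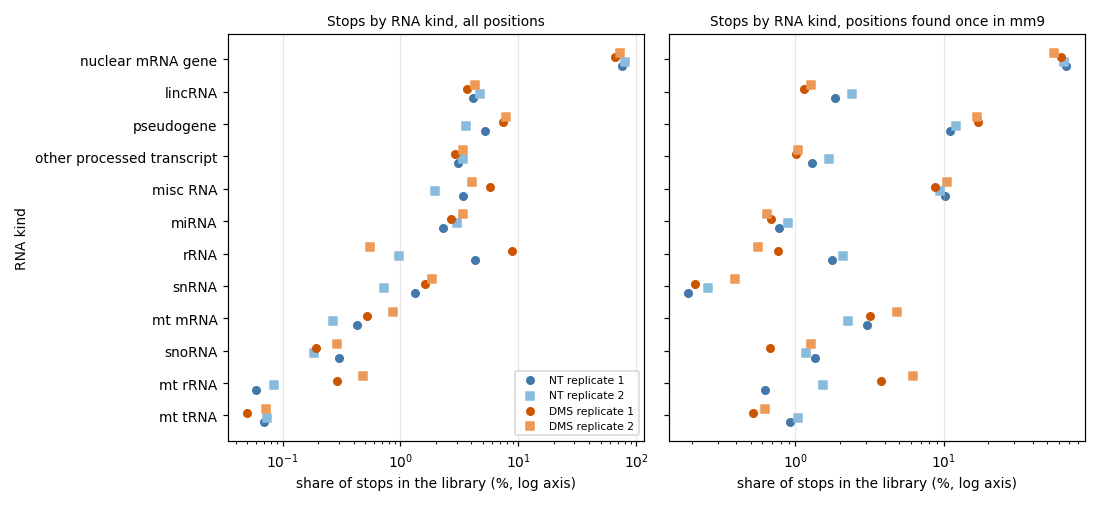
Percent of a library's stops (log axis) by kind of RNA in the 2 NT and 2 DMS libraries, over all positions and over positions found once. Mitochondrial rRNA shows DMS libraries (0.291 and 0.481% over all positions) above NT libraries (0.0591 and 0.0852%), and rRNA genes spread widely within each treatment.

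Per gene, edgeR called 1623 of 12015 tested genes higher (13.5%) and 1616 lower (13.4%) in DMS. Among positions found once the shares were 8.11% higher and 15.5% lower, and without the genes of equal replicates 9.51% higher and 8.95% lower. The log2 values of genes below follow the TMM scaling, under which the median gene sat at 0.00, whereas on library totals it sat at 0.46, and kinds whose direction or count of calls turned with this choice are given under both. The split of calls followed this choice, with 50.1% of called genes higher under TMM and 70.3% on library totals. DMS was added to lysates, so these calls compare counted stops and do not measure RNA levels in the cells.

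Both mitochondrial rRNAs, the RNA cores of the mitochondrial ribosome, rose. How much of them the rRNA depletion left in each library was not measured, and its part was not tested. mt-Rnr1, the 12S rRNA of the small subunit (ENSMUSG00000064337, chrM:70-1024), held 12612 and 29445 stops in NT and 111598 and 213639 in DMS, a log2 change of 2.44 ± 0.59 (SE, adjusted p = 0.00937). mt-Rnr2, the 16S rRNA of the large subunit (chrM:1094-2675), held 72347 and 84753 in NT and 306218 and 389086 in DMS, a log2 change of 1.69 ± 0.50 (adjusted p = 0.0266). For each RNA the lowest DMS library lay above the highest NT library. Without NT replicate 1 and NT replicate 2 in turn, the log2 changes were 1.84 and 3.48 for mt-Rnr1 and 1.40 and 2.05 for mt-Rnr2. A fit without 1 library has a single library in that treatment, whose spread is taken from the other treatment. Wherever a call is given below as held or lost without a library, this therefore says nothing about its stability. At found-once positions mt-Rnr1 kept its call (log2 2.37, adjusted p = 0.0267) and mt-Rnr2 did not (log2 1.74, adjusted p = 0.0729).

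Along these rRNAs most raised positions were A. In mt-Rnr1, 29 of 563 tested positions were raised, 28 of them at A and 23 at A before another A. This was 5.15% of its tested positions and 11.1% of its tested A, below the 12.1% of all tested positions and 28.0% of all tested A. A370, the first base of the second window printed above, held 8 and 15 stops in NT and 2652 and 2944 in DMS, a log2 of 5.06 within the RNA. A2 held 2 and 1 stops in NT and 3032 and 6314 in DMS, and A395 held 1 and 3 in NT and 426 and 882 in DMS. All of these had fewer than 20 stops in either NT library. In mt-Rnr2, 202 of 1017 tested positions were raised (19.9%), 135 of them at A (30.3% of its tested A), and 27 of the raised positions had equal replicates. A27 held 4 and 4 stops in NT and 2295 and 2242 in DMS, a log2 of 7.00. A414 held 1 and 2 in NT and 1168 and 1200 in DMS, and A781 held 0 and 1 in NT and 532 and 733 in DMS. The other raised positions of mt-Rnr2 fell on C, G and U, such as the C capitals of its second window.

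**Figure D4:**
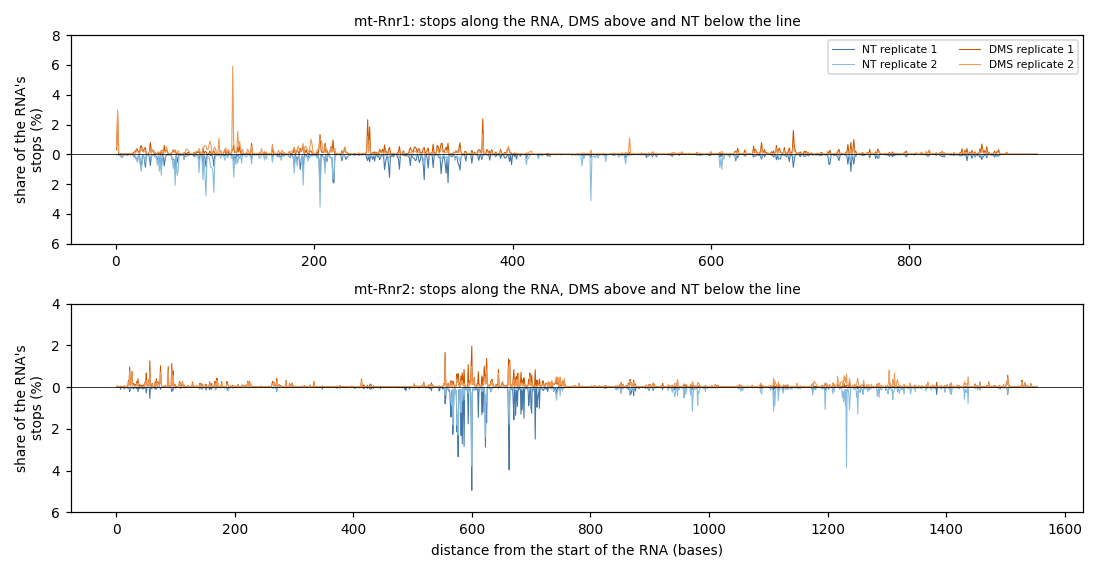
Percent of the RNA's own stops at each position along mt-Rnr1 and mt-Rnr2 (x axis, position in the transcript), with DMS libraries drawn above and NT libraries below the line. DMS stops gather at single positions, such as A2 of mt-Rnr1 with 2.72 and 2.96% of the RNA's stops against 0.0159 and 0.00340% in NT.

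Mitochondrial mRNAs encode subunits of the respiratory chain and ATP synthase, and 4 of the 13 rose in edgeR's test (30.8%, against 13.5% of all tested genes), with a median log2 of 0.84, while the other 9 did not pass. On library totals and by DESeq2 8 rose, and the median on library totals was 1.30. At found-once positions edgeR called 0 of 8, with 3 higher at an unadjusted p under 0.05 and a median of 0.87. mt-Atp8, an ATP synthase subunit, held 5317 and 3433 stops in NT and 12955 and 15419 in DMS (log2 1.30 ± 0.35, adjusted p = 0.0153). mt-Nd2, mt-Nd3 and mt-Nd5, all subunits of complex I, gave log2 changes of 1.16 ± 0.34, 0.95 ± 0.29 and 1.21 ± 0.40 (adjusted p = 0.0242, 0.0290 and 0.0433). None of these calls held when each of the 4 libraries was left out in turn, since leaving out either NT library ended all of them and leaving out DMS replicate 2 ended those of mt-Nd2, mt-Nd3 and mt-Nd5 (0.0519, 0.0836 and 0.0553), with adjusted p for mt-Atp8, for example, of 0.0505 without NT replicate 1 and 0.0725 without NT replicate 2. mt-Co1, the largest of the group by stops and a catalytic subunit of cytochrome oxidase, held 304406 and 163112 in NT and 292246 and 456517 in DMS, ranges that overlapped (log2 0.31, adjusted p = 0.698). At mt-Co3 A636, in the window printed above, counts were 28 and 24 in NT and 926 and 1014 in DMS, a log2 of 4.44 within the RNA. At A87 of mt-Co2, another cytochrome oxidase subunit, they were 8 and 12 in NT and 406 and 582 in DMS (log2 4.27). Of tested A in mitochondrial mRNAs 402 of 1833 (21.9%, below the 28.0% of all tested A) were raised, against 15 of 1390 C (1.08%).

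Mitochondrial tRNAs moved the other way, with 11 of 22 lower and 1 higher (4.55%) in edgeR's test, against 13.4 and 13.5% of all tested genes, and a median log2 of -0.999. Many of these tRNAs carry a natural methyl group on the purine at position 9, a place where reverse transcriptase stops without any reagent. In the untreated libraries the leading stop was at position 9 in 15 of the 22, and in all 15 that base was A or G. In mt-Tv, the valine tRNA, A9 held 42784 and 35865 stops in NT and 10825 and 14255 in DMS, or 77.8 and 77.7% of the RNA's stops in NT and 35.7 and 45.4% in DMS. In mt-Tq, the glutamine tRNA, G9 held 70.8 and 76.7% in NT and 26.8 and 69.0% in DMS. In mt-Tt, the threonine tRNA, A9 held 31.1 and 29.3% in NT and 9.95 and 8.16% in DMS. In 10 of the 15 the share at position 9 was lower in both DMS libraries than in both NT libraries. In mt-Tc the replicates disagreed, with 70.4 and 90.4% in NT and 45.5 and 90.9% in DMS.

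By total stops mt-Tv fell from 54964 and 46171 to 30357 and 31413 (log2 -1.13 ± 0.38, adjusted p = 0.0429), a call lost without the genes of equal replicates (adjusted p = 0.0587), on library totals (0.0642), at found-once positions (0.0628) and without DMS replicate 1, NT replicate 1 or NT replicate 2 (0.0589, 0.0575 and 0.0940). mt-Ts1, a serine tRNA, fell from 472 and 503 to 119 and 162 (log2 -2.24 ± 0.32, adjusted p = 0.000588). mt-Tq fell from 4108 and 4038 to 1171 and 1588 (log2 -2.00 ± 0.32, adjusted p = 0.00101), a call lost without NT replicate 2 (0.0545). mt-Ts2, the other serine tRNA, was the one that rose, from 27 and 18 to 167 and 176 (log2 2.52 ± 0.32, adjusted p = 0.000317). The call of mt-Ts2 and 3 of the 11 lower calls held without each library. Of tested A in these tRNAs 24 of 66 (36.4%, against 28.0% of all tested A) were raised within the RNA. In mt-Tg, the glycine tRNA, A34 held 3 and 3 stops in NT and 900 and 901 in DMS, and in mt-Tv A25 held 107 and 106 in NT and 830 and 830 in DMS, counts that were equal or nearly equal between replicates. On library totals 4 of the 22 were lower and 2 higher, with a median log2 of -0.50. The lower totals and the lower shares at position 9 stand side by side here, and the part of the recovery columns, which only DMS-treated RNA met, cannot be told apart from that of the reagent.

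**Figure D5:**
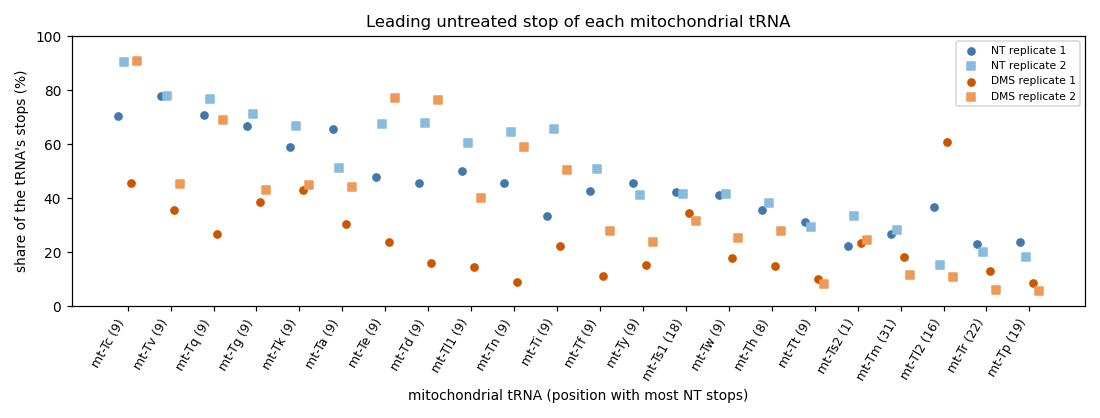
Percent of each mitochondrial tRNA's stops at the position that leads in NT (y axis), in the 2 NT and 2 DMS libraries. For mt-Tv both NT libraries lie near 78% (77.8 and 77.7%) and the DMS libraries at 35.7 and 45.4%.

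Among the 10 spliceosomal and U7 snRNAs, 2 were higher and 1 lower, against 13.5 and 13.4% of all tested genes, and none of these calls held without each library in turn, with a median log2 of 0.14 (1 and 1, and 0.63, on library totals). U1, which pairs with 5′ splice sites, fell from 464480 and 363949 stops to 77143 and 94871 (log2 -2.68 ± 0.53, adjusted p = 0.00262), a call lost without NT replicate 2 (0.0771). Its 2 leading positions lay near the 5′ end, in the stretch that pairs with the splice site. The U at position 5 held 105338 and 105428 stops in NT and 1486 and 1739 in DMS. The U at position 6 held 109680 and 111996 in NT and 8758 and 17683 in DMS. Both bases are the capitals of the U1 window above, and the sequence after them occurs at 28 places in mm9, so the stops cannot be assigned to 1 copy. The U12 RNA of the minor spliceosome rose from 2304 and 893 to 6626 and 3300 (log2 1.28 ± 0.39, adjusted p = 0.0303), but the call was lost on library totals (0.0772), without the genes of equal replicates (0.0579) and without NT replicate 1, NT replicate 2 or DMS replicate 1 (0.104, 0.362 and 0.142). The U7 RNA, which acts in histone mRNA 3′ end formation, held 1 and 4 stops in NT and 21 and 27 in DMS (log2 2.78, and 1.93 without NT replicate 1). It is 1 of the 2 higher calls, but it passed the filter on counts only through its DMS libraries, so no p is given for it. The U2, U4, U5, U11 and U4atac RNAs did not pass the test.

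Inside snRNAs, 69 of 251 tested A (27.5%) were raised, close to the 28.0% of all tested A, and 4 of 171 C (2.34%), against 9.74% of all tested C. In the U2 RNA, which pairs with the branch point, A47 held 291 and 81 stops in NT and 2861 and 2143 in DMS, a log2 of 2.77 ± 0.15 (adjusted p = 0.0225). AC120136.1 and AC120136.2, annotated snRNA genes on chromosome 1, held nearly the same counts at their position 59, which occurs at 8 places: for AC120136.1 these were 127 and 52 in NT and 5426 and 4833 in DMS, a log2 of 4.55 ± 0.12 (adjusted p = 0.0225). The total of AC120136.2 did not pass the test (377570 and 135786 in NT, 629734 and 593058 in DMS, adjusted p = 0.251).

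Box C/D snoRNAs guide ribose methylation, and 42 of 109 tested were lower (38.5%) and 4 higher (3.67%) in DMS, against 13.4 and 13.5% of all tested genes, with a median log2 of -0.63. On library totals 15 were lower and 6 higher, with a median of -0.18. Calls were counted by symbol. Among the lower ones Snord70 and SNORD70, and Snord12 and SNORD12, differ only in case and can name the same RNA. Of the 42 lower calls 11 held without each library in turn, and none of the 4 higher calls did. Snord69 fell from 10515 and 11388 stops to 901 and 1055 (log2 -3.93 ± 0.40, adjusted p = 0.000227), and its G6, the capital of the Snord69 window, held 85.6 and 87.2% of its stops in NT and 78.7 and 81.6% in DMS. The whole RNA thus fell with its main stop. SNORD88 fell from 647 and 641 to 86 and 111 (log2 -3.14 ± 0.32, adjusted p = 0.000227). Snord32a fell from 3235 and 3107 to 669 and 650 (log2 -2.70 ± 0.29, adjusted p = 0.000236). U3, a box C/D RNA that acts in rRNA processing rather than methylation, did not pass the test (309833 and 157492 in NT, 203917 and 227005 in DMS, adjusted p = 0.494). Its A113 held 54 and 36 stops in NT and 1236 and 2346 in DMS, a log2 of 5.35.

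Box H/ACA snoRNAs, which guide pseudouridylation, had 9 of 87 higher (10.3%) and 7 lower (8.05%), below the 13.5 and 13.4% of all tested genes, with a median log2 of 0.05, and on library totals the median was 0.50 with 4 higher, while edgeR called 0 lower with 3 lower at an unadjusted p under 0.05 and DESeq2 12 lower. Under TMM 2 of the 9 higher and none of the 7 lower calls held without each library in turn. Snora62 held 408 and 272 stops in NT and 719 and 5469 in DMS (log2 2.81 ± 0.66, adjusted p = 0.00767), and the call was lost without DMS replicate 2 (0.395), NT replicate 1 (0.265) or NT replicate 2 (0.365), as well as on library totals and by DESeq2. Small Cajal body RNAs, which guide the modification of snRNAs, had 2 of 19 higher (10.5%) and 3 lower (15.8%), also near those shares, with a median of -0.03. The lower calls included SCARNA6 and Scarna6, symbols that differ only in case and can name the same RNA. On library totals the median was 0.43, and edgeR called 1 higher and 0 lower, with 2 lower at an unadjusted p under 0.05. SCARNA15 held 32 and 26 stops in NT and 239 and 669 in DMS, and 79.8% of them lay at its first base. The other small RNAs of this class, 7SK, vault RNA and Y RNA, had 1 of 3 lower and the others not past the test: Y_RNA fell from 273373 and 71215 to 79179 and 53268 (log2 -1.70 ± 0.55, adjusted p = 0.0394), a call lost without the genes of equal replicates (0.0669), NT replicate 1 (0.238) or NT replicate 2 (0.0835), and also on library totals. AC131793.1, the snoRNA gene with the largest rise by the naming rule, held 43 and 41 stops in NT and 257 and 712 in DMS (log2 3.11 ± 0.47, adjusted p = 0.000755), a call lost without NT replicate 1 (0.119) or NT replicate 2 (0.145).

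The 5S and 5.8S rRNA genes, which the cell copies from many loci, had 2 of 126 higher (1.59%) and 52 lower (41.3%), against 13.5 and 13.4% of all tested genes, with a median log2 of -0.66. Of their 134 genes 41 had equal replicates, and leaving out 1 of 2 equal libraries cannot test a call. Without those genes 16 of 85 were lower, with a median of 0.38, while by edgeR 0 were higher and 1 was higher at an unadjusted p under 0.05 (DESeq2 on the full list called 3 higher). On library totals the full list had 38 lower and 3 higher, with a median of -0.24. The sign of the list's median thus turned with the genes of equal replicates. At found-once positions 54 of 80 were lower (67.5%) and 2 higher, with a median of -1.78. AC141881.1, an rRNA gene on chromosome 8 with the largest share of this kind, held 126560 and 23198 stops in NT and 268956 and 13175 in DMS, and it did not pass the test (log2 0.60, adjusted p = 0.682). AL807771.1, the rRNA gene with the largest fall among those with at least 1000 stops, held 12113 and 11587 in NT and 2385 and 1299 in DMS (log2 -3.13 ± 0.41, adjusted p = 0.000369). n-R5-8s1, a 5.8S rRNA gene, held 116 and 117 stops in NT and 17856 and 17856 in DMS. Its replicates were equal, so the test adds nothing to these counts.

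Pseudogenes were the kind with most genes higher: 719 of 2298 (31.3%) were higher and 44 (1.91%) lower, against 13.5 and 13.4% of all tested genes, with a median log2 of 0.57 (1.02 on library totals). At found-once positions 512 of 2038 (25.1%) were higher and 79 lower, and without the genes of equal replicates 464 of 2058 (22.5%) were higher and 22 lower. A led here as well, with 1390 of 2504 found-once A (55.5%) raised within pseudogenes against 85 of 2736 C (3.11%), 46 of 785 G (5.86%) and 43 of 1747 U (2.46%). Gm15662, on chromosome 10, held 1283 and 709 stops in NT and 17108 and 18618 in DMS (log2 3.79 ± 0.39, adjusted p = 0.000227). Mrpl23-ps1, a processed copy of a mitochondrial ribosomal protein gene, fell from 46042 and 26821 to 3831 and 5168 (log2 -3.40 ± 0.39, adjusted p = 0.000249). The same reads can be counted both at a processed pseudogene and at its parent mRNA, so these calls are not all separate measurements. This can also hold at found-once positions, since bases that span an exon junction of the parent were not searched in spliced transcripts. The rule for placing multiply mapped reads is not given in the sources used here. Gm13340, the pseudogene with the most stops, held 144544 and 97320 in NT and 200939 and 266211 in DMS, and did not pass the test (adjusted p = 0.411).

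Of nuclear mRNA genes, 645 of 7904 were higher (8.16%) and 1162 lower (14.7%), against 13.5 and 13.4% of all tested genes, with a median log2 of -0.12. On library totals 973 were higher and 751 lower and the median was 0.34, so the direction of this kind turned with the scaling. Cytosolic ribosomal protein mRNAs had 2 of 80 higher (2.50%), with a median of 0.37 (5 and 0.83 on library totals), and the others did not pass. DESeq2 called 13 of them higher and 1 lower. Rpl13a rose from 6167 and 3146 to 15687 and 20895 (log2 1.61 ± 0.37, adjusted p = 0.00621) and Rps16 from 8240 and 4281 to 17302 and 34554 (log2 1.69 ± 0.40, adjusted p = 0.00845), both lost without NT replicate 2 (0.0921 and 0.230) and Rps16 also without NT replicate 1 (0.112). At found-once positions 3 of 76 were higher and 9 lower. Histone mRNAs had 1 of 70 higher, Hist2h2be (1914 and 1743 in NT, 4788 and 4729 in DMS, log2 0.95, adjusted p = 0.0291), a call lost without NT replicate 1 (0.0628) or NT replicate 2 (0.0566), and the list's median went from 0.00 to 0.45 on library totals, with 4 higher. Of 16 pluripotency mRNAs 2 were lower (12.5%, against 13.4% of all tested genes), Sall4 (6270 and 5809 in NT, 3762 and 3312 in DMS, log2 -1.21 ± 0.33, adjusted p = 0.0184) and Utf1 (1505 and 1273 in NT, 1059 and 908 in DMS, log2 -0.92 ± 0.25, adjusted p = 0.0170). Both calls were lost without DMS replicate 1 (0.0556 and 0.2497), DMS replicate 2 (0.107 and 0.349) or NT replicate 2 (0.0584 and 0.0813), and both went on library totals, where the median of the list was 0.38. Rorb, an orphan nuclear receptor, was the nuclear mRNA gene with the largest share, at 1880499 and 1853333 stops in NT and 268573 and 270876 in DMS (log2 -3.23 ± 0.66, adjusted p = 0.00326). The call was lost without NT replicate 1 (0.0765) or NT replicate 2 (0.158), and at found-once positions, which hold only 0.00527% of its stops, it did not pass (log2 -0.97, adjusted p = 0.0931). Its leading position, C3149, held 242580 and 242582 stops in NT and 25150 and 25145 in DMS, at a sequence found at 2202 places, so these stops cannot be assigned to Rorb. Lrrc27 rose from 65 and 101 to 1142 and 3654 (log2 4.39 ± 0.54, adjusted p = 0.000289), a call lost without NT replicate 1 (0.0933) or NT replicate 2 (0.0991), with most of its DMS stops at positions 1 to 3. Zbtb38 fell from 55198 and 28310 to 2561 and 3628 (log2 -4.12 ± 0.42, adjusted p = 0.000227), but at found-once positions its log2 was 0.086 (adjusted p = 0.873).

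Of 12 long noncoding RNAs 5 were lower in edgeR's test (41.7%, against 13.4% of all tested genes) and the others did not pass it, with a median log2 of -0.89 (-0.39 with 2 lower on library totals). DESeq2 called 8 of the 12 lower. Gas5, a host gene of snoRNAs, fell from 4982 and 2388 to 1148 and 1053 (log2 -2.11 ± 0.31, adjusted p = 0.000627) and kept the call without each library, as did Rian. Snhg1, Snhg7 and Snhg9, host genes of snoRNAs, lost theirs without DMS replicate 1 (0.0883, 0.200 and 0.554), NT replicate 1 (0.0831, 0.0532 and 0.0996) or NT replicate 2 (0.154, 0.0883 and 0.289), and Snhg7 and Snhg9 also without DMS replicate 2 (0.0619 and 0.0606). The Gas5 U38 held 63.2% of its stops over the 4 libraries. Rian, an imprinted noncoding RNA that also hosts snoRNAs, fell from 14058 and 13265 to 5632 and 5613 (log2 -1.72 ± 0.34, adjusted p = 0.00287), but at found-once positions its log2 was -0.34 and did not pass. Malat1 (log2 0.05, adjusted p = 0.952) and Neat1 (log2 -0.01, adjusted p = 0.990), nuclear noncoding RNAs, did not pass.

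lincRNA genes had 40 of 347 higher (11.5%) and 60 lower (17.3%), near the 13.5 and 13.4% of all tested genes, with a median log2 of -0.47, against 61 higher and 31 lower on library totals and 9 higher and 108 lower of 290 at found-once positions. Gm16869 fell from 235101 and 365385 to 51873 and 28298 (log2 -3.40 ± 0.59, adjusted p = 0.00162), a call lost without NT replicate 2 (0.0723). Gm4117, the lincRNA with the largest share, held 269639 and 310214 in NT and 276238 and 263061 in DMS and did not pass over all positions (adjusted p = 0.445), but at found-once positions, which hold 1.10% of its stops, it was lower (log2 -1.31, adjusted p = 0.0357). Wbscr25 held 52 and 62 in NT and 477 and 473 in DMS, but at found-once positions it was lower in DMS (log2 -2.35, adjusted p = 0.0149). miRNA genes had 145 of 551 higher (26.3%) and 122 lower (22.1%), above the 13.5 and 13.4% of all tested genes, while on library totals 179 were higher and 62 lower. At found-once positions 26 of 135 were higher and 60 lower, with a median of -0.65, and without the genes of equal replicates 86 were higher and 89 lower. Of 30 with miRNA gene symbols 8 were higher and 4 lower, with a median of 0.00 (9 and 2, and 0.45, on library totals). mmu-mir-2134-1 held 14 and 14 stops in NT and 997 and 996 in DMS (log2 5.72), and 93.7% of them lay at its G2. Its replicates were nearly equal, so the test adds nothing to these counts. Mir466f-2, from a repeated cluster, held 8 and 7 in NT and 107 and 108 in DMS. These counts were again nearly equal between replicates. Miscellaneous RNAs had 2 of 110 higher (1.82%) and 23 lower (20.9%), against 13.5 and 13.4% of all tested genes, with a median of -0.67 (5 and 7, and -0.18, on library totals). DESeq2 called 66 of them lower, whereas edgeR called 12 lower without the genes of equal replicates and 10 of 47 lower at found-once positions, where the median was -0.25. AC099934.1, the largest by share, held 985124 and 429461 in NT and 2152186 and 1036286 in DMS without passing the test (adjusted p = 0.385). AC159379.1 fell from 21118 and 16836 to 5923 and 6085 (log2 -2.08 ± 0.33, adjusted p = 0.00102), but at found-once positions, which hold 0.118% of its stops, it was higher (log2 3.15, adjusted p = 0.0142). Other processed transcripts had 34 of 325 higher (10.5%) and 70 lower (21.5%), against 13.5 and 13.4% of all tested genes, with a median of -0.35, against 53 higher and 33 lower and a median of 0.14 on library totals. Among them RP23-349B4.7 fell from 14093 and 20711 to 2488 and 4221 (log2 -2.85 ± 0.44, adjusted p = 0.000883), a call lost without NT replicate 2 (0.0683).

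The remaining positions with the largest rises of their kinds were of mixed bases. Among miscellaneous RNAs A102 of AC149599.1, at a sequence found once, held 42 and 42 stops in NT and 3476 and 3503 in DMS (log2 5.52). A239 of AC102240.1, also found once, held 22 and 21 in NT and 1836 and 1837 in DMS. The pseudogenes Gm5642 and Gm7671 shared their counts at A295, with 7 and 1 in NT and 466 and 880 in DMS, at a sequence found at 20 places, so they give 1 measurement rather than a pair. Of lincRNAs, A960 of Gm15396 held 19 and 19 in NT and 569 and 596 in DMS at a sequence found at 1274 places, and G1151 of 2700038G22Rik held 21 and 34 in NT and 609 and 978 in DMS at 37891 places. Among other processed transcripts A456 of Gm12953 held 40 and 61 in NT and 507 and 2259 in DMS, and U3097 of BC018473 held 69 and 68 in NT and 448 and 449 in DMS. Among snoRNAs C2 of Snord33 held 80 and 80 in NT and 198 and 719 in DMS, or 5.84 and 7.42% of the RNA's stops in NT and 38.7 and 47.9% in DMS (log2 2.71 ± 0.23, adjusted p = 0.0228). In whole genes, the miRNA gene AC109201.1 fell from 7544 and 5810 to 1140 and 1468 (log2 -2.77 ± 0.34, adjusted p = 0.000288) and kept the call without each library. AC125010.1, the miRNA gene with the largest share, held 97821 and 99121 in NT and 92688 and 74404 in DMS and did not pass (adjusted p = 0.267). Gm12127, the leading other processed transcript, held 190953 and 192629 in NT and 196146 and 154999 in DMS and did not pass either (adjusted p = 0.402), but at found-once positions, which hold 0.241% of its stops, it was lower (log2 -1.53, adjusted p = 0.0146). Gm14236, AC160471.1 and CAAA01037531.1.36077.1 had equal replicates, with 89 and 89 against 588 and 587, 302 and 301 against 1549 and 1547, and 9966 and 9965 against 1984 and 1984 stops in NT and DMS.

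The first 3 bases held a larger share of stops after DMS in several kinds of RNA. In miRNA genes, positions 1 to 3 held 0.337 and 0.277% of stops in NT and 5.75 and 3.98% in DMS. In mitochondrial rRNA they held 0.0224 and 0.0158% in NT and 0.875 and 1.28% in DMS, which are the A capitals that open the mt-Rnr1 window. In mitochondrial tRNA they held 3.41 and 3.46% in NT and 8.99 and 12.8% in DMS. Both DMS libraries lay above both NT libraries in these 3 kinds. The same held for lincRNA, miscellaneous RNAs, mitochondrial mRNA, nuclear mRNA genes, pseudogenes and rRNA genes. In other processed transcripts both DMS libraries lay below, at 0.221 and 0.212% in NT and 0.117 and 0.133% in DMS. In snRNA and snoRNA the ranges overlapped. The same counts stood in several transcripts: position 3 held the counts 0, 0, 3037 and 139 in 44 genes, and 0, 0, 6824 and 3738 at 6 positions. Among the latter were those of Ampd3, Cdh7, AC123803.1 and AL662925.1, at sequences found at 9835 places or more. The count of places was capped at 100000.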

How the data were processed

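Chemical inference of RNA structures (CIRS-seq) counts the sites at which reverse transcription stops. Per the labels and the study's methods, reads were mapped to an mm9 assembly carrying the single-nucleotide variants of the E14 line, with Bowtie 1.0.0, FastQC 0.10.1 and bedtools 2.17.0 named in the submitters' processing notes. The deposited values are whole-number counts of stops per transcript position, and the authors had not normalized them. How multiply mapped reads were placed, and whether strand was used, is not given in the sources used here. Counts of combined replicates and of other treatments were not used. The 2 libraries of each treatment stayed apart in the tests, and their stops were summed for the mean base ratios.

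Tables were built in pandas 2.3.3 and numpy 2.4.6 under Python 3.11.15, sequences searched with numba 0.67.0, shares tested in scipy 1.17.1 and figures drawn in matplotlib 3.10.9. Kinds came from the GENCODE biotype, and 28 kept transcripts were not in that annotation. The test of stops per gene was that of edgeR 4.0.16, run in R 4.3.3 (filterByExpr, TMM, quasi-likelihood, Benjamini-Hochberg adjustment over all genes, threshold 0.05). Positions were tested likewise with the transcript's own total as offset, from 100 stops over the 4 libraries. Each SE of a log2 was derived from the F statistic of the same test and is no separate measure of spread. The base ratio used positions with at least 10 stops and a pseudocount of 1. A position was called found once when its next 25 bases occurred once in mm9. The search covered the genome and not spliced transcripts. Such a position can therefore still share its 25 bases with another transcript across an exon junction. The kept transcripts held 125379374 to 143858229 stops per library, and 2 libraries per treatment limit the precision. The scripts were tested on simulated data.

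Alternatives were DESeq2 1.42.0, library totals without TMM, no filter, another transcript per symbol, found-once positions, a replicate block and leaving out each library. After the data were seen, a further one left out 756 genes, and at positions those whose replicates differed by at most 1 in both treatments. In these genes at least 90% of positions with 10 or more stops differed by at most 1 between replicates. This was read only in treatments with at least 5 such positions, and 1 such treatment was enough. Genes with few such positions were therefore kept even where their replicates were equal. The genes named were, within each kind, the one with the largest share and those with the largest rise and fall among genes past the threshold with at least 1000 stops and no overlap between treatments. The positions named were the 2 with the largest rise in each kind among positions past the threshold with at least 1000 stops, at most 1 per gene. Genes and positions given as examples of lists, and those in windows of sequence, were chosen after their values were seen. Members and lists were chosen with earlier results of these data known. The positions of 1 snRNA are not reported here.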

Additional observations from a re-analysis of the deposited data

How the results depend on the processing

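The count of genes differing between DMS and NT, 3239, became 4921 with DESeq2, 2079 without the genes of equal replicates and 1783 to 2961 when 1 library was left out, the lowest without NT replicate 2. It stayed within 1.5 times on library totals (3259), without a filter (3234), with the transcript of most stops (3484) and at found-once positions (2454). The count of positions raised or lowered, 48540, became 90695 with library totals as offset, 30746 with at least 200 stops, 5541 at found-once positions and 20638 without positions of equal replicates. edgeR called 0 positions with any library left out, with 64515 to 100424 at an unadjusted p under 0.05. Fewer positions were tested at found-once positions and with the higher minimum, and for the other settings the cause was not tested.

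Replicates shared only a number in the labels. Deviations of NT replicate 1 and DMS replicate 1 from their group means correlated across 12015 genes (Pearson's r = 0.587), and genes are not independent replicates. With the replicate number as a block, edgeR called 5844 genes and 48289 positions, and the log2 of AC141881.1 became -0.29. Of the named genes, 3 lost their calls under this block.

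Reversed values at found-once positions were log2 -2.35 for Wbscr25, 3.15 for AC159379.1 and 0.086 for Zbtb38. AC141881.1, not called in the full data, ranged from -2.70 (without DMS replicate 1) to 1.94 (without NT replicate 1) with 1 library left out, and gave -0.09 without NT replicate 2. The DMS minus NT share differences at found-once positions, in percentage points, were -0.176 for miRNA (0.376 over all positions), -0.117 for miscellaneous RNA (2.18), 1.37 for mitochondrial mRNA (0.346), 3.89 for mitochondrial rRNA (0.314), -0.409 for mitochondrial tRNA (-0.0106), -0.478 for other processed transcripts (-0.0847), 5.32 for pseudogenes (3.20), 0.0775 for snRNA (0.709), -0.288 for snoRNA (-0.00256), -1.28 for rRNA genes (2.10) and -0.911 for lincRNA (-0.445). With 1 library left out they ranged from -0.789 to -0.102 for lincRNA, 0.0193 to 0.732 for miRNA, 1.35 to 3.00 for miscellaneous RNA, 0.176 to 0.517 for mitochondrial mRNA, 0.218 to 0.409 for mitochondrial rRNA, -0.0217 to 0.000423 for mitochondrial tRNA, -12.2 to -5.26 for nuclear mRNA, -0.304 to 0.134 for other processed transcripts, 2.42 to 3.98 for pseudogenes, -2.09 to 6.29 for rRNA genes, 0.398 to 1.02 for snRNA and -0.0628 to 0.0576 for snoRNA. The base ratio of 1.22 became 0.860 with a pseudocount of 5, 0.176 and 0.385 with stops moved 1 base upstream and downstream, 0.990 as a mean over genes and 1.08 to 1.24 with 1 library left out. The difference in the share at A and C, 14.3 points, became 9.40 upstream, 12.4 downstream, 16.5 at found-once positions and 13.3 to 15.4 with 1 library left out.

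Of 33 named genes, 33 kept direction and side of the threshold under DESeq2, without a filter and with the transcript of most stops, and 31 did on library totals, 29 with the replicate block and 22 to 31 with 1 library left out, 22 without NT replicate 2 and 25 without NT replicate 1. At found-once positions a value could be had for 23 of them, of which 15 kept both. Of 24 named positions, all 24 did so under DESeq2, with at least 200 stops and with the block, 21 did on library totals and none in any fit with 1 library left out, which could not be read for stability since 1 treatment then holds a single library and the smallest adjusted p was 0.0832 to 0.179. With 2 libraries per treatment these p-values rest on few degrees of freedom, and only 4.59 to 6.68% of stops lay at positions found once.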
